A study of Mus musculus with 3 samples.

Results

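The cells described here are barcodes with the basal keratins *Krt14* and *Krt5* in the stromal vascular fraction (SVF) of inguinal white adipose tissue from 4-week-old mice. A barcode was a member if it had at least 2000 unique molecular identifiers (UMIs), at most 10% of its UMIs on mitochondrial genes, at least 3 *Krt14* UMIs, at least 1 *Krt5* UMI and no *Pdgfra* or *Pecam1* UMI. This rule gave 25 basal cells among 10511 kept wild-type barcodes, 107 among 12575 *Mgp*-KO barcodes and 10 among 8819 *Pd*-KO barcodes, which was 142 of 31905 in all, or 0.445%. The members were chosen on measured values, so their *Krt14* and *Krt5* levels and every contrast with the other cell types are descriptions without a test.

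Each genotype was a single library of pooled mice. The wild-type library pooled 12 mice (5 female, 7 male). The *Mgp*-KO library pooled 13 mice (6 female, 7 male) with a global deletion of matrix Gla protein, from the B6.129S7-Mgptm1Kry/KbosJ line. The *Pd*-KO library pooled 11 mice (5 female, 6 male) that were *Mgp* flox/flox and carried the transgene C57BL/6-Tg (Pdgfra-cre)1Clc/J, so that *Mgp* is deleted where the *Pdgfra* promoter is or has been active. Wild-type mice without floxed alleles or Cre served as the comparison for both knockouts. All cells had been sorted to remove dead cells (DAPI) and CD45+ immune cells. Animals cannot be told apart within a library, so the 95% intervals below cover counting error alone, and genotypes were compared without a p-value.

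The inguinal fat pad of the mouse encloses the mammary gland, whose ducts have an inner layer of luminal cells and an outer layer of basal myoepithelial cells. Basal cells carry the keratins 5 and 14 and the transcription factor p63 (*Trp63*), rest on the basement membrane, and contract through smooth muscle actin when oxytocin reaches them at milk let-down. For comparison, luminal cells were barcodes with at least 1 *Epcam* UMI, at least 3 *Krt18* UMIs and at most 1 *Krt14* UMI (366, 586 and 123 cells in the same order of libraries). Vascular smooth muscle cells, which contract with many of the same proteins but are not epithelial, were barcodes with at least 3 *Myh11* UMIs, at most 1 *Krt14* UMI and no *Krt5*, *Epcam*, *Pdgfra* or *Pecam1* UMI (635, 104 and 214 cells).

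The basal cells held 291219 UMIs in the wild-type, 637367 in the *Mgp*-KO and 102029 in the *Pd*-KO library, with medians of 9801, 5078 and 8779 UMIs per cell. Levels are given as CPM, the summed UMIs of a gene in a cell type per 1000000 UMIs of that type in the same library. A level of 100 CPM thus stood for 29.1, 63.7 and 10.2 UMIs in basal cells of these libraries, and the *Pd*-KO values were the least precise. Where 3 values are listed in a row, wild-type comes first, *Mgp*-KO second and *Pd*-KO last. No kept barcode of a basal cell was shared between libraries, although 40, 37 and 35 other kept barcodes were shared by pairs of libraries.

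The label was checked on genes that the rule did not use. *Acta2* (ENSMUSG00000035783, chr19:34241090-34255590 of GRCm38), smooth muscle actin, had at least 3 UMIs in all 142 members. Its lowest, median and highest counts per cell were 16, 120 and 739 UMIs in wild-type, 3, 61 and 392 in *Mgp*-KO and 28, 79 and 180 in *Pd*-KO cells, so the libraries overlapped widely. *Krt17*, a further basal keratin, had a UMI in 120 of the 142 members. *Trp63* (ENSMUSG00000022510, chr16:25683763-25892102) had a UMI in 81 members, at 124 CPM (87 to 171), 182 CPM (150 to 218) and 470 CPM (347 to 624), against 0.449, 0.509 and 0 CPM in luminal cells. In the *Pd*-KO library, 33 of the 48 *Trp63* UMIs came from 1 cell, and without the highest cell of each library its level was 113, 174 and 168 CPM.

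Markers of other cell types were summed list by list in the basal cells. The sum over 12 vascular smooth muscle markers was 48.1, 155 and 39.2 CPM in basal cells and 6244, 6550 and 9080 CPM in vascular smooth muscle cells, and *Myocd*, the smooth muscle coactivator, had no UMI in any member. Of 8 leukocyte markers, *Ptprc*, *Tyrobp*, *Lyz2*, *Fcer1g*, *Cd3e* and *Cd79a* had no UMI. *Cd74*, the invariant chain of antigen presentation, was at 34.3, 3.14 and 0 CPM, and 7 of its 10 wild-type UMIs lay in 1 cell. *Cd52*, a lymphocyte surface protein, had 1 UMI in *Pd*-KO, or 9.80 CPM. Of 14 keratinocyte markers, the genes of cornifying skin *Krt1*, *Lor* and *Ivl* had no UMI, while the list as a whole summed to 2263, 2763 and 3264 CPM, mostly on *Lgals7*, *Krt15* and *Sfn*, against 368, 414 and 361 CPM in luminal cells. The 8 endothelial markers, among them *Pecam1*, which the rule held at 0, summed to 24.0, 14.1 and 0 CPM. The 6 adipocyte markers summed to 594, 248 and 9.80 CPM, mostly on *Fabp4*. The 10 fibroblast markers summed to 3290, 1575 and 7968 CPM, led by *Col3a1* at 1284, 624 and 3087 CPM, against 11559, 5332 and 10928 CPM in luminal cells. With the highest basal cell of each gene left out, the basal sums were 3144, 509 and 927 CPM. The fibroblast list includes *Pdgfra*, which the rule held at 0 in basal but not in luminal cells. The 8 Schwann cell markers summed to 92.7, 201 and 245 CPM in basal cells, 139, 62.4 and 65.0 CPM in luminal cells and 8401, 152 and 188 CPM in free RNA, read from barcodes of 10 to 100 UMIs. The highest of them in wild-type and *Mgp*-KO basal cells was *Cnp*, an enzyme of myelin-forming cells, at 72.1 and 86.3 CPM. The adipocyte markers summed to 3260, 5110 and 4260 CPM in free RNA. Smooth muscle actin was thus in every member, and *Krt1*, *Lor*, *Ivl*, *Myocd* and *Ptprc* were at 0. RNA of the fibroblast, keratinocyte, adipocyte and Schwann cell lists was present, that of the adipocyte list at only 9.80 CPM in *Pd*-KO.

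The gates left out some barcodes that also carried *Krt14*, most of them with *Acta2*. Of the members, 8 had exactly 3 *Krt14* UMIs and 16 exactly 1 *Krt5* UMI. Just outside were 14 barcodes with 2 *Krt14* UMIs and *Krt5*, all with at least 3 *Acta2* UMIs, and 9 with enough *Krt14* but no *Krt5*, of which 4 had at least 3 *Acta2* UMIs. A further 22 barcodes met the keratin gates but had a *Pdgfra* UMI, and 8 had a *Pecam1* UMI, and all of these also had at least 3 *Acta2* UMIs. Median depth of the barcodes with a *Pdgfra* UMI was 25000.5, 10899 and 5289 UMIs, against 9801, 5078 and 8779 UMIs in members. Whether such barcodes held more than 1 cell was not tested. The luminal gate gene *Krt18* reached 3 UMIs in 13 members.

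**Figure D1:**
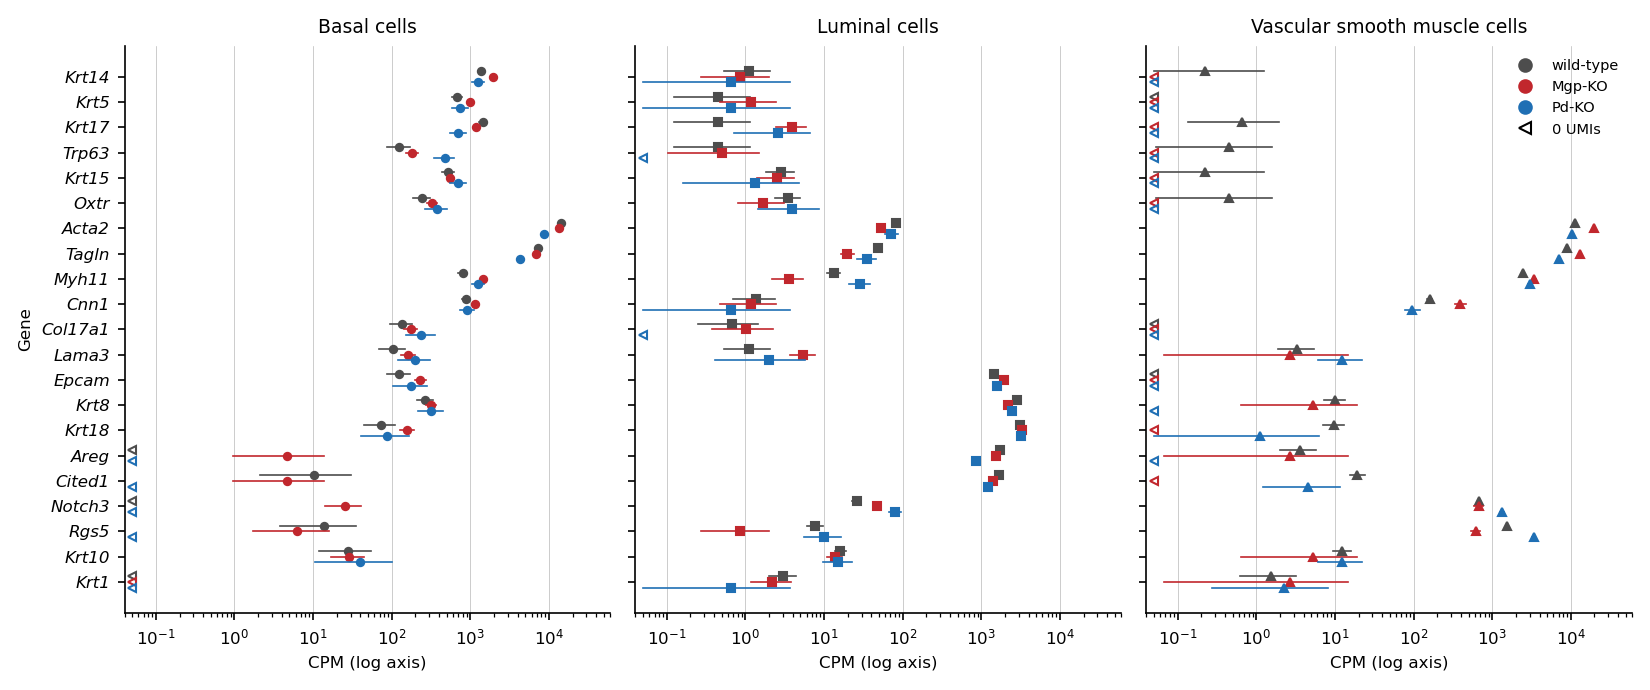
Level of 21 genes (CPM, log axis, 95% Poisson intervals) in basal, luminal and vascular smooth muscle cells, with wild-type in grey, *Mgp*-KO in red and *Pd*-KO in blue; open triangles at the left edge mark 0 UMIs. *Krt14*, *Krt5*, *Myh11*, *Epcam* and *Krt18* were used by the gates. *Acta2* lies between 8615 and 14127 CPM in basal cells and between 52.7 and 83.1 CPM in luminal cells, and *Krt1* has no UMI in basal cells.

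The 18 contractile genes tested were all higher in basal than in luminal cells. Over 10217 genes with at least 100 UMIs in both types together, 6.11% were at least 2-fold higher in basal than in luminal cells in every library and 7.0% were at least 2-fold lower. These shares stand beside the counts of every list compared with luminal cells below. With fewer than 3 UMIs on the lower side counted as 3, which is called the floor below, 624 genes were still higher but 247 in place of 715 were lower, since few UMIs were read from basal cells. The contractile list holds 20 genes, of which *Myh11* was used to choose the cells and *Des* had too few UMIs to be tested (3.43, 23.5 and 0 CPM in basal, 6.06, 1.36 and 9.85 CPM in luminal cells). The ratios of the 18 genes tested had medians of 4.06, 5.61 and 3.65 on the log2 scale, where the median of all genes lay between -0.05 and -0.01. *Acta2* was at 14127, 13490 and 8615 CPM in basal and at 83.1, 52.7 and 71.6 CPM in luminal cells. *Tagln*, an actin-binding protein of smooth muscle, was at 7166, 6856 and 4273 CPM in basal cells against 49.3, 19.8 and 34.8 CPM. The smallest differences in the list were those of *Myl6*, a myosin light chain of many cell types, with log2 ratios of 1.46, 1.69 and 1.45, and of *Actn1*, an actin cross-linker, with 1.52, 2.07 and 1.13.

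Set against vascular smooth muscle, most of the same genes were at similar or lower levels. Of 7352 genes, 5.39% were at least 2-fold higher in basal cells and 11.2% at least 2-fold lower in every library, which with the floor was 391 higher in place of 396 and 515 lower in place of 824. The same shares stand beside the lists compared with vascular smooth muscle below. Of 19 contractile genes tested, 1 was higher, 5 were lower and the medians were -0.71, -0.79 and -0.89 on the log2 scale, with medians of all genes of -0.20, -0.03 and -0.12. The lower genes were *Tpm1*, *Myl9*, *Lmod1*, *Des* and *Synpo2*. *Des*, the muscle intermediate filament desmin, was at 3.43, 23.5 and 0 CPM in basal and at 531, 472 and 655 CPM in vascular smooth muscle cells. *Myl9*, the regulatory myosin light chain, was at 1034, 1432 and 872 CPM against 4059, 6723 and 3536 CPM.

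The 1 contractile gene higher in basal cells was *Cnn1* (ENSMUSG00000001349, chr9:22099216-22109630), calponin, an actin-binding regulator of contraction. Its level was 886 CPM (781 to 1001), 1134 CPM (1053 to 1220) and 912 CPM (736 to 1117) in basal cells, 160, 395 and 96.8 CPM in vascular smooth muscle cells and 1.35, 1.19 and 0.657 CPM in luminal cells. The log2 ratio over vascular smooth muscle was 2.47 (2.26 to 2.67), 1.52 (1.27 to 1.79) and 3.23 (2.80 to 3.68). *Acta2* had no common direction in this contrast, with log2 ratios of 0.33 (0.28 to 0.38), -0.55 (-0.60 to -0.51) and -0.25 (-0.35 to -0.15). Basal cells thus carried smooth muscle actin at about the level of vessel wall cells, more calponin and much less desmin.

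Promoters of the contractile genes were searched for the CArG box, the site of serum response factor, with CC and GG around a run of A or T (the box reads alike on both strands). In RefSeq promoters of GRCm38.p6, 250 bases before the start of transcription, the box was present in 439 of 27025 genes (1.62%), and in 3 of the 17 contractile genes with a promoter in the table (17.6%). It was present in 0 of 10 keratin genes and in 0 of 13 basement membrane genes. A looser form with 1 G or C allowed in the middle, which includes the box, was present in 9.78% of all genes and in 5 of 17 contractile genes (29.4%), adding *Acta2* and *Pdlim3*. A match is only a run of letters, and the binding of the factor was not measured. The stretches below are shown because they belong to genes that were high in basal cells, and capitals mark the box or, in *Acta2*, its looser form.
Acta2, chr19:34255374-34255523, minus strand, 150 bases up to the start: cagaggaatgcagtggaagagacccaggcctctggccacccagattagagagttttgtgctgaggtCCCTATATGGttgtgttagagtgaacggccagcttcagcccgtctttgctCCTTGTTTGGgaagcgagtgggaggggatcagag
Myl9, chr2:156775274-156775333, plus strand: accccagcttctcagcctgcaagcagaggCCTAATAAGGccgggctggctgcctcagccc
Vcl, chr14:20929148-20929207, plus strand: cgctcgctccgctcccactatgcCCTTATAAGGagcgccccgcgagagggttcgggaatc
Myl6, chr10:128493030-128493089, minus strand, the second of 2 starts in the table: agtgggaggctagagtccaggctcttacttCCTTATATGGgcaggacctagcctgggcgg
The capitals begin 84 and 34 bases before the start in *Acta2*, 161 in *Myl9*, 227 in *Vcl* and 50 in *Myl6*, where the 60 bases at the same place before the other start (chr10:128493907-128493966) hold no box. All 4 genes were past 2-fold over luminal cells in every library, and *Myl9* alone among them was past 2-fold below vascular smooth muscle in every library.

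Keratins divided basal from luminal cells in both directions. Of 9 keratins tested outside the gates, *Krt15*, *Krt17* and *Krt23* were higher in basal cells and *Krt7*, *Krt8* and *Krt19* were lower in every library. *Krt6a* and *Krt79* passed as lower only through the counts added to 0 UMIs and not with the floor, and in *Pd*-KO their levels in luminal cells (9.85 and 15.1 CPM) lay under that of 3 UMIs in basal cells (29.4 CPM). *Krt17* was at 1432, 1180 and 706 CPM in basal and at 0.449, 3.9 and 2.63 CPM in luminal cells. *Krt15*, a keratin of basal layers, was at 522, 554 and 706 CPM against 2.81, 2.54 and 1.31 CPM. *Krt8* and *Krt19*, keratins of simple epithelium, also had UMIs in basal cells: *Krt8* was at 264, 315 and 314 CPM and *Krt19* at 168, 121 and 186 CPM, against 2187 to 2884 and 3216 to 4293 CPM in luminal cells. In free RNA, *Krt8* was at 75.7, 326 and 54.1 CPM and *Krt19* at 117, 526 and 92.1 CPM. The part of free RNA in the basal values of these keratins was not tested. All 5 keratins tested against vascular smooth muscle, *Krt8* and *Krt19* among them, were past 2-fold higher in basal cells. *Krt6b*, *Krt13* and *Krt75* had no UMI in any member.

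Genes of the basement membrane and of the hemidesmosome, which anchors basal cells to it, made up the next group. Of 17 basement membrane genes tested against luminal cells, 9 were higher and none lower, with medians of 1.36, 2.09 and 1.42, or 1.28, 2.08 and 1.40 when genes at 0 UMIs were set to the level of 3 UMIs. Among the higher genes were the laminin chains *Lama1*, *Lama3*, *Lamb1*, *Lamb3* and *Lamc1* and the collagens *Col4a1*, *Col4a2* and *Col7a1*. *Lama3*, a laminin chain of epithelial anchorage, was at 103, 162 and 196 CPM in basal cells, against 1.12 to 5.42 CPM in luminal and 2.67 to 12.4 CPM in vascular smooth muscle cells. *Col7a1*, the collagen of anchoring fibrils, was at 120, 169 and 176 CPM, against at most 2.67 CPM in both other types. *Lama1* was at 68.7, 180 and 206 CPM, with 0, 2.2 and 0 CPM in luminal and 0, 0 and 1.13 CPM in vascular smooth muscle cells.

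Against vascular smooth muscle cells, 8 of the 16 basement membrane genes tested were not past 2-fold in a common direction. Of 16 basement membrane genes tested against them, 6 were higher in basal cells, among them *Lama1*, *Lama3*, *Lamb1*, *Col4a6* and *Col7a1*, and *Lama5* and *Lamb2*, chains of the vessel wall, were lower. The other 8 were *Lamc1*, *Nid1*, *Hspg2*, *Col4a1*, *Col4a2*, *Col4a5*, *Sparc* and *Frem2*. *Lamb2* was at 44.6, 40.8 and 39.2 CPM in basal and at 245, 323 and 351 CPM in vascular smooth muscle cells. *Col4a1*, the main type IV collagen, was at 1013, 1094 and 1921 CPM in basal cells and within 2-fold of vascular smooth muscle in every library, with log2 ratios of -0.33, 0.47 and 0.35.

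Of 11 hemidesmosome and integrin genes tested against luminal cells, 6 were higher and none lower (*Col17a1*, *Itga6*, *Itga3*, *Itgb1*, *Itgb8* and *Itga9*). *Col17a1*, the transmembrane collagen of the hemidesmosome, was at 134 CPM (95 to 183), 176 CPM (145 to 211) and 235 CPM (151 to 350) in basal cells. It had no UMI in vascular smooth muscle cells, where 3 UMIs would be 0.666, 8 and 3.38 CPM, so it was at least 201-fold, 22-fold and 69.7-fold higher in basal cells. *Itga6*, the laminin receptor used to sort basal mammary cells, was at 319, 411 and 529 CPM, against 80 to 173 CPM in luminal and at most 12.4 CPM in vascular smooth muscle cells. *Itgb1*, the common beta chain, lay between the other types, with log2 ratios of 1.29, 1.48 and 1.17 over luminal and -1.23, -1.02 and -1.46 over vascular smooth muscle cells.

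Among 16 adhesion genes tested against luminal cells, *Cdh3*, *Dsp* and *Perp* were higher and *Cdh1*, *Cldn3*, *Cldn4* and *Cldn7* were lower, as was *Ocln* without but not with the floor. *Cdh3*, P-cadherin, was at 61.8, 154 and 235 CPM in basal and at 0.112, 0.509 and 1.31 CPM in luminal cells. *Cdh1*, E-cadherin, was at 6.87, 37.7 and 9.8 CPM against 66.4, 159 and 176 CPM. The tight junction gene *Cldn3* was at 6.87, 34.5 and 0 CPM against 510, 448 and 383 CPM. The cadherins thus went in opposite directions, and the tight junction genes that passed were all lower in basal cells.

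**Figure D2:**
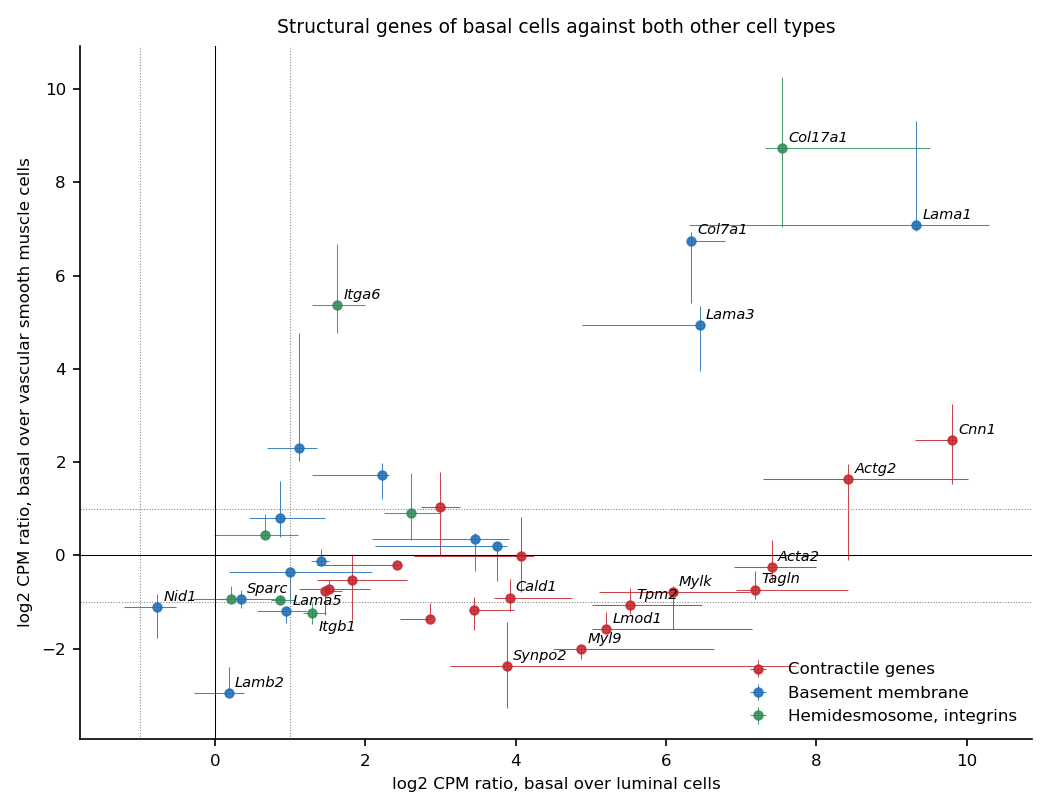
Log2 CPM ratio (0.5 counts added) of basal over luminal cells (x axis) and over vascular smooth muscle cells (y axis) for the contractile (red), basement membrane (blue) and hemidesmosome and integrin genes (green) tested in both contrasts, except 1 basement membrane gene. Points are medians of the 3 libraries, bars reach the lowest and the highest library, dotted lines mark 2-fold, and ratios of genes at 0 UMIs in the other type, such as *Col17a1* on the y axis, depend on the counts added. *Cnn1* is the contractile gene past 2-fold over both types in every library, and *Lamb2* lies lowest on the y axis.

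The luminal programme was low or not seen in basal cells. Of 18 luminal markers tested, 18 were past 2-fold lower in every library, and 16 with the floor, under which *Kit* and *Elf5* were lost in *Pd*-KO. The medians were -4.49, -4.60 and -5.08, or -4.56, -4.60 and -3.46 when genes at 0 UMIs were set to the level of 3 UMIs (11 of the 18 genes were at 0 in *Pd*-KO basal cells). *Areg*, the growth factor amphiregulin, had 0, 3 and 0 UMIs in basal cells, at 0, 4.71 and 0 CPM against 1707, 1526 and 863 CPM in luminal cells. *Cited1*, a transcriptional coregulator of hormone-responsive luminal cells, was at 10.3, 4.71 and 0 CPM against 1671, 1414 and 1233 CPM. Of the genes ranked outside the lists, *Upk3a*, a uroplakin, was at 0, 1.57 and 0 CPM in basal and at 2191, 1408 and 1551 CPM in luminal cells. *Aqp5*, a water channel, was at 6.87, 0 and 0 CPM against 606, 948 and 733 CPM. *Stc2*, the secreted glycoprotein stanniocalcin, was at 3.43, 3.14 and 0 CPM against 432, 491 and 478 CPM.

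Some hormone receptors were higher in basal cells and others in luminal cells. Of 13 tested against luminal cells, *Oxtr* and *Vdr* were higher in basal cells and *Esr1*, *Pgr* and *Prlr* were lower. *Oxtr* (ENSMUSG00000049112, chr6:112473683-112489943), the oxytocin receptor, was at 240 CPM (187 to 304), 325 CPM (282 to 372) and 372 CPM (264 to 511) in basal cells, 3.48, 1.7 and 3.94 CPM in luminal and 0.444, 0 and 0 CPM in vascular smooth muscle cells. It had a UMI in 19 of 25, 76 of 107 and 9 of 10 members, which was 104 of 142. *Prlr*, the prolactin receptor, was at 13.7, 1.57 and 0 CPM in basal and at 1322, 2126 and 2467 CPM in luminal cells. *Esr1*, the estrogen receptor, was at 3.43, 12.6 and 0 CPM against 64, 295 and 476 CPM. *Pgr*, the progesterone receptor, was at 20.6, 18.8 and 118 CPM against 100, 210 and 275 CPM, and the *Pd*-KO value rests on 12 UMIs in 5 of 10 members. *Vdr*, the vitamin D receptor, was at 20.6, 42.4 and 58.8 CPM against 7.07, 13.4 and 20.4 CPM. The oxytocin receptor was thus a basal gene and the prolactin receptor a luminal gene in all 3 libraries.

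Of 24 transcription factors tested, 9 were higher in basal than in luminal cells (*Trp63*, *Snai2*, *Sox10*, *Id4*, *Irx4*, *Egr2*, *Mef2c*, *Nfib* and *Tfap2c*) and 8 were lower, of which *Ehf*, *Gata3*, *Foxa1*, *Cited1* and *Zeb2* were so with the floor and *Elf5*, *Grhl1* and *Twist1* were not, having 1, 0 and 0 UMIs in *Pd*-KO basal cells. Luminal cells were not held at 0 *Pdgfra* and *Pecam1* UMIs, as basal cells were. With luminal cells also held so, 668 of all genes were lower in place of 715. The part of RNA from other cells in the luminal levels of lower genes such as *Zeb2* and *Twist1* was not tested. *Id4*, an inhibitor of helix-loop-helix factors, was at 330, 245 and 461 CPM against 2.02, 3.56 and 11.2 CPM. *Irx4*, an Iroquois homeobox factor, was at 85.8, 105 and 108 CPM, with 0, 0.678 and 0 CPM in luminal cells and no UMI in vascular smooth muscle cells. *Snai2*, the zinc finger factor Slug, was at 124, 130 and 58.8 CPM against 5.27, 2.88 and 7.23 CPM. *Foxa1*, a pioneer factor of the estrogen response, was at 6.87, 0 and 0 CPM against 171, 158 and 237 CPM. Against vascular smooth muscle, *Trp63*, *Sox9*, *Sox10*, *Id4*, *Irx4*, *Egr2*, *Nfib* and *Tfap2c* were higher and *Tbx2*, *Mef2c*, *Myocd*, *Zeb1*, *Zeb2* and *Twist1* were lower, of 16 tested. *Mef2c*, a muscle and vessel factor, therefore lay between the types, at 54.9, 62.8 and 58.8 CPM in basal, 17.5, 6.78 and 22.3 CPM in luminal and 812, 734 and 1212 CPM in vascular smooth muscle cells.

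Secreted factors and their receptors were tested from a list of 27 genes. Against luminal cells, 8 of 23 were higher (*Nrg1*, *Fgf1*, *Pdgfa*, *Igf1r*, *Igfbp2*, *Igfbp3*, *Igfbp5* and *Cxcl14*) and 4 were lower (*Erbb3*, *Areg*, *Ptn* and, without but not with the floor, *Inhba*). *Nrg1*, neuregulin, the ligand of the receptor encoded by *Erbb3*, was at 75.5, 471 and 225 CPM in basal and at 0.449, 13.7 and 4.6 CPM in luminal cells. *Erbb3* showed the reverse, at 0, 3.14 and 0 CPM against 65.8, 88.7 and 101 CPM. *Cxcl14*, a chemokine, was at 1483, 2182 and 1294 CPM in basal cells and at most 24.8 CPM in both other types. *Il17b*, a cytokine of the interleukin-17 family found by rank and not from a list, was at 1284, 1571 and 1137 CPM in basal cells and at most 7.97 CPM in luminal and 2.67 CPM in vascular smooth muscle cells. Further genes found by rank were *Adamts18*, a secreted metalloproteinase, at 113, 249 and 578 CPM with no UMI in vascular smooth muscle cells, and *Fhod3*, a formin of actin filaments, at 106, 333 and 519 CPM with at most 2.63 CPM in both other types.

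In the Wnt and Notch list, 6 of 22 genes tested were higher than in luminal cells (*Lgr4*, *Lgr6*, *Fzd2*, *Fzd7*, *Tcf7* and *Sfrp1*) and 3 were lower (*Wnt4*, *Wnt7b* and *Hes1*). Shares of all genes in this contrast were 6.11% higher and 7.0% lower. *Wnt4*, the Wnt ligand of hormone-responsive luminal cells, was at 10.3, 14.1 and 0 CPM in basal and at 153, 183 and 123 CPM in luminal cells. *Lgr6*, an R-spondin receptor, was at 48.1, 140 and 167 CPM against 6.73, 10.2 and 13.8 CPM. *Wnt7b* was not lower with the floor: it had no UMI in basal cells, and in the *Pd*-KO library its level in luminal cells (25 CPM) lay under that of 3 UMIs in basal cells (29.4 CPM). *Jag2* and *Dll1*, Notch ligands, had too few UMIs to be tested, at 75.5, 72.2 and 58.8 CPM and at 75.5, 73.7 and 29.4 CPM in basal cells against at most 1.97 CPM in luminal cells. Against vascular smooth muscle, *Lgr4* and *Lgr6* were higher and 7 of 16 genes were lower (6 with the floor), among them the vessel receptor *Notch3* (0, 25.1 and 0 CPM against 684, 675 and 1317 CPM). There, 5.39% of all genes were higher and 11.2% lower.

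In the BMP and TGFβ list, 8 of 25 genes tested were higher than in luminal cells (*Mgp*, *Bmp7*, *Acvr2a*, *Tgfb2*, *Tgfbr3*, *Fst*, *Bambi* and *Ccn2*), although *Mgp* in the *Mgp*-KO library rested on 1 UMI in each type, and *Id3* and *Tgfbr2* were lower. Shares of all genes in this contrast were 6.11% higher and 7.0% lower, so the lower genes of the list were near the share of all genes. *Fst*, follistatin, an inhibitor of activins, was at 278, 361 and 118 CPM against 43, 28.5 and 42 CPM. *Bmp7*, a ligand, was at 58.4, 51.8 and 118 CPM against 2.92, 2.88 and 4.6 CPM. *Tgfbr3*, the coreceptor betaglycan, was at 161, 667 and 990 CPM against 25.9, 58.3 and 106 CPM. *Id3*, a direct target of BMP signaling, was at 48.1, 143 and 9.8 CPM in basal, 505, 372 and 346 CPM in luminal and 770, 1427 and 713 CPM in vascular smooth muscle cells. Against vascular smooth muscle, *Acvr1*, *Tgfbr3* and *Bambi* were higher of 25 genes tested, and *Bmp2*, *Bmp6*, *Id1*, *Id3*, *Tgfb2* and *Ltbp1* were lower, *Bmp6* not with the floor. There, 5.39% of all genes were higher and 11.2% lower. *Bambi*, a decoy receptor of the pathway, was thus higher and *Id3* lower in basal cells than in both other types.

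The basal cells varied among themselves. Depth differed between cells, from 2294 to 35472 UMIs, so shares of cells were also computed with every cell thinned to 2000 UMIs, which all 142 members reached. Before thinning, *Krt15* had a UMI in 11 of 25, 58 of 107 and 7 of 10 members, or 44.0%, 54.2% and 70.0%, and after thinning in 6 of 25, 39 of 107 and 5 of 10. In luminal cells, whose median depths of 21866, 8883 and 10911 UMIs were higher, 3.28%, 2.22% and 1.63% had a *Krt15* UMI. The highest cell held 74 of the 152 wild-type *Krt15* UMIs. *Krt17* was as uneven, with 229 of 417 wild-type UMIs in 1 cell, a median of 5 UMIs per cell and at least 1 UMI in 96.0% of wild-type members. *Oxtr* was found in 24.0%, 39.3% and 30.0% of thinned members and *Cnn1* in 64.0%, 73.8% and 70.0%, with intervals that overlapped between libraries.

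Genes of dividing cells were found in some basal cells, in a share that the few members left imprecise. At least 3 UMIs on 7 genes of the G2 and M phases were found in 3 of 25, 3 of 107 and 3 of 10 basal cells, or 12% (2.55 to 31.2), 2.80% (0.582 to 7.98) and 30.0% (6.67 to 65.2). The same threshold was passed by 29.0%, 13.5% and 19.5% of luminal cells and by 1.73%, 0% (0 to 3.48) and 0.935% of vascular smooth muscle cells. Depth was not equal here, and luminal cells had the most UMIs. Of 15 cell cycle genes, none was higher than in luminal cells in every library and *Ccnb2*, *Birc5* and *Ube2c* were lower, with the floor *Ube2c* alone. Over all genes, 6.11% were higher and 7.0% lower, with the floor 247 of 10217 lower, and 15 genes are few to set against these shares. The medians were -0.45, -1.29 and 0.60, and the list summed to 1288, 753 and 2137 CPM in basal against 1939, 1189 and 1341 CPM in luminal cells. In *Pd*-KO, 1 cell held 18 of 24 *Top2a* UMIs, and the highest cell of each gene held 9 of 13 *Mki67*, 31 of 63 *Hmgb2* and 24 of 64 *Stmn1* UMIs. With the highest cell of each gene left out, the sum in basal cells was 900, 601 and 1178 CPM, while no cell was left out of the luminal sum. Against vascular smooth muscle, 5 of 7 genes tested were higher (*Mki67*, *Top2a*, *Tyms*, *Hmgb2* and *Stmn1*, with the floor 4 without *Top2a*) and none was lower, with medians of 1.58, 2.69 and 2.15. There, 5.39% of all genes were higher and 11.2% lower.

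The basal share was higher in the *Mgp*-KO library than in both others by more than counting error. Basal cells were 0.238% of kept wild-type barcodes (0.154 to 0.351), 0.851% of *Mgp*-KO barcodes (0.698 to 1.03) and 0.113% of *Pd*-KO barcodes (0.0544 to 0.208), and the wild-type and *Pd*-KO intervals overlapped. With every cell thinned to 2000 UMIs before gating, the shares were 0.105%, 0.485% and 0.0454%, in the same order. With 1 library per genotype, genotype, dissection, dissociation and sorting cannot be told apart, since the amount of gland taken with the fat and the recovery of its cells are not known. For each luminal cell there were 0.0683 (0.0436 to 0.102), 0.183 (0.147 to 0.225) and 0.0813 (0.0380 to 0.155) basal cells, and after thinning 0.0391, 0.123 and 0.04. The *Mgp*-KO interval lay above that of wild-type, and the *Pd*-KO interval, from 10 cells, overlapped both.

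The basal cells came almost all from female mice. Cells with *Xist* UMIs but none from 4 Y-linked genes were counted as female, cells with Y-linked UMIs but no *Xist* as male, and the rest had no call. Of the members with a call, 21 of 22, 93 of 95 and 9 of 10 were female, which was 123 of 127 (96.9%, 92.1 to 99.1). Luminal cells were 88.0%, 96.4% and 85% female and vascular smooth muscle cells 46.7%, 73.5% and 56.3%. All kept barcodes with a call were 50.01%, 80.5% and 45.2% female, although 5 of 12, 6 of 13 and 5 of 11 mice were female, so the *Mgp*-KO library held more female cells than its share of mice. Of female-called barcodes, basal cells were 0.569% (0.353 to 0.869), 1.22% (0.986 to 1.49) and 0.314% (0.144 to 0.595). Within female cells the *Mgp*-KO share stayed above both others, with intervals that did not overlap.

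**Figure D3:**
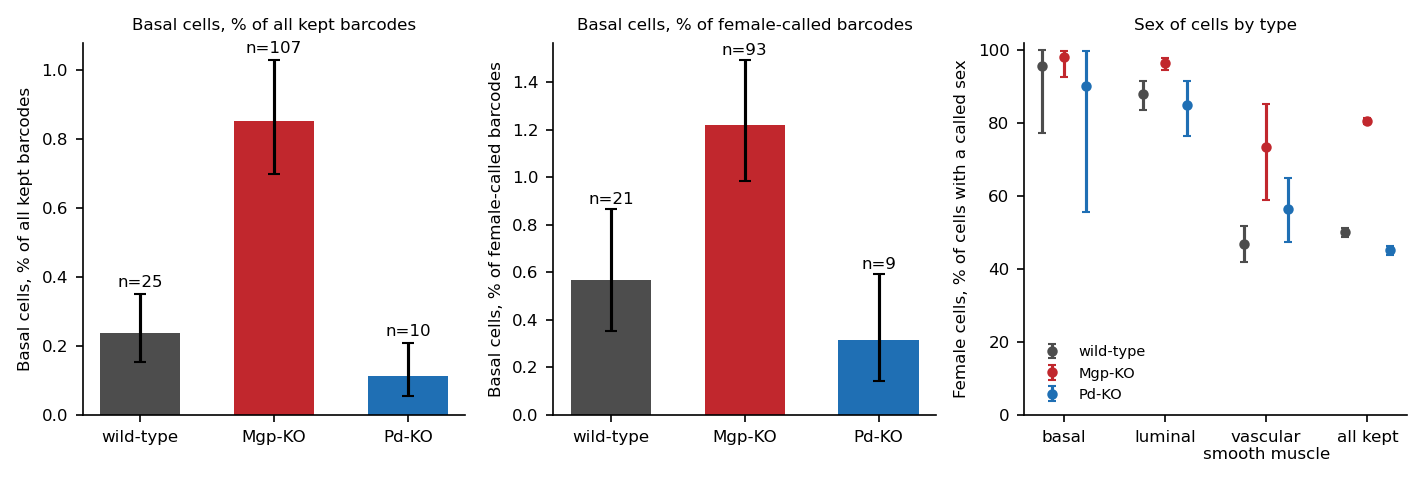
Basal cells as a percentage of all kept barcodes (left) and of female-called barcodes (middle), with the number of cells above each bar, and percentage of female cells among cells with a called sex by cell type (right). Error bars are exact binomial 95% intervals for counting error. The *Mgp*-KO bar is highest in both panels (0.851% and 1.22%), and basal cells are 90.0% to 97.9% female.

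*Mgp* (ENSMUSG00000030218) was measured as a check of the genotypes and as a gene of basal cells. MGP is a secreted matrix protein that inhibits BMP ligands. In wild-type basal cells, 121 UMIs gave 415 CPM (345 to 496), and 21 of 25 cells had at least 1 UMI, with a median of 3 and a highest count of 24. The level in wild-type cells was 43.1 CPM in luminal, 249 CPM in vascular smooth muscle and 474 CPM in *Pdgfra*-positive cells, and 359 CPM in free RNA. *Col3a1*, a fibroblast collagen, was counted beside it: there were 32.4 *Mgp* UMIs per 100 *Col3a1* UMIs in basal cells, 1.02 in luminal cells, 9.67 in vascular smooth muscle cells and 4.77 in free RNA. The part of RNA from other cells in the basal *Mgp* level was not tested, and the members had been chosen for having no *Pdgfra* UMI. Wild-type basal cells thus had *Mgp* close to the levels of *Pdgfra*-positive cells and of free RNA, and more of it per *Col3a1* UMI than free RNA.

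In *Mgp*-KO basal cells, 1 *Mgp* UMI was found in 107 cells, at 1.57 CPM (0.0397 to 8.74), and the log2 ratio over wild-type was -7.47 (-13.36 to -5.54). In *Pd*-KO basal cells, 3 UMIs in 2 of 10 cells gave 29.4 CPM (6.06 to 85.9), with a log2 ratio of -3.60 (-6.12 to -2.24). The *Pd*-KO level was 3.28 CPM in luminal, 32.6 CPM in vascular smooth muscle and 1.92 CPM in *Pdgfra*-positive cells, and 6.28 CPM in free RNA. *Mgp* was thus lower than wild-type in *Pd*-KO cells that had been chosen for having no *Pdgfra* UMI, and whether these cells or their precursors had carried active Cre was not tested.

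**Figure D4:**
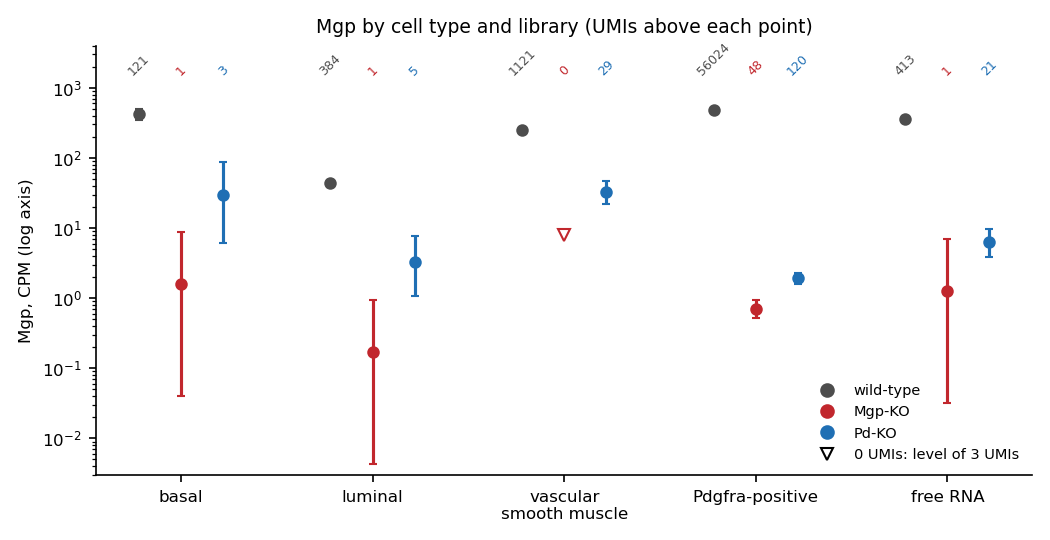
*Mgp* level (CPM, log axis, 95% Poisson intervals) in basal, luminal, vascular smooth muscle and *Pdgfra*-positive cells and in free RNA, with wild-type in grey, *Mgp*-KO in red and *Pd*-KO in blue, and with the number of *Mgp* UMIs above each point; the open triangle marks the level of 3 UMIs where none was found. Wild-type basal cells are at 415 CPM, and *Pd*-KO basal cells at 29.4 CPM from 3 UMIs.

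The remaining genes were compared between libraries over 1581 genes with at least 100 UMIs summed over the basal cells of the 3 libraries. In *Mgp*-KO basal cells, 17.6% of the genes were at least 2-fold higher than in wild-type and 1.71% at least 2-fold lower. In *Pd*-KO basal cells, 17.5% were higher and 7.4% lower. Both comparisons share the wild-type library. The genes past 2-fold in the higher direction were long: their introns summed to a median of 192 kb in *Mgp*-KO and 203 kb in *Pd*-KO, against 10.2 and 10.5 kb for genes within 2-fold and 4.04 and 3.85 kb for genes that were lower. In the 157 genes with at least 200 kb of introns, the median log2 ratio was 2.14 in *Mgp*-KO and 2.47 in *Pd*-KO, and in luminal cells it was 1.86 and 2.40 for the same genes.

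The file headers name Cell Ranger 4 for the wild-type and version 7.1.0 for both knockout libraries, versions that differ by default in whether reads from introns are counted, so genotype and read counting cannot be told apart for such genes. Between the knockouts, whose headers name the same version, the median for these genes was 0.40, with 3.61% of all genes at least 2-fold higher in *Pd*-KO and 8.48% lower. Among the 472 genes with less than 5 kb of introns, 2.54% were higher and 2.97% lower in *Mgp*-KO, and 0.424% were higher and 13.1% lower in *Pd*-KO. The highest genes in both knockouts by rank were *Kcnq5*, a potassium channel (3.43, 573 and 990 CPM, 556 kb of introns), *Rora*, a nuclear receptor (3.43, 364 and 657 CPM, 721 kb), and *Pde4d*, a phosphodiesterase (3.43, 281 and 539 CPM, 1492 kb). *Lgr5*, an R-spondin receptor with 127 kb of introns, had 0 UMIs in wild-type basal cells, which allows up to 10.3 CPM, and was at 107 and 58.8 CPM in the knockouts, in 33 of 107 and 3 of 10 cells. The lowest by rank were *Gm42418* and *AY036118*, which overlap ribosomal RNA, at 26784, 3378 and 4577 CPM and at 3053, 340 and 657 CPM, with like log2 ratios in luminal cells (-3.42 and -2.09 for *Gm42418*).

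**Figure D5:**
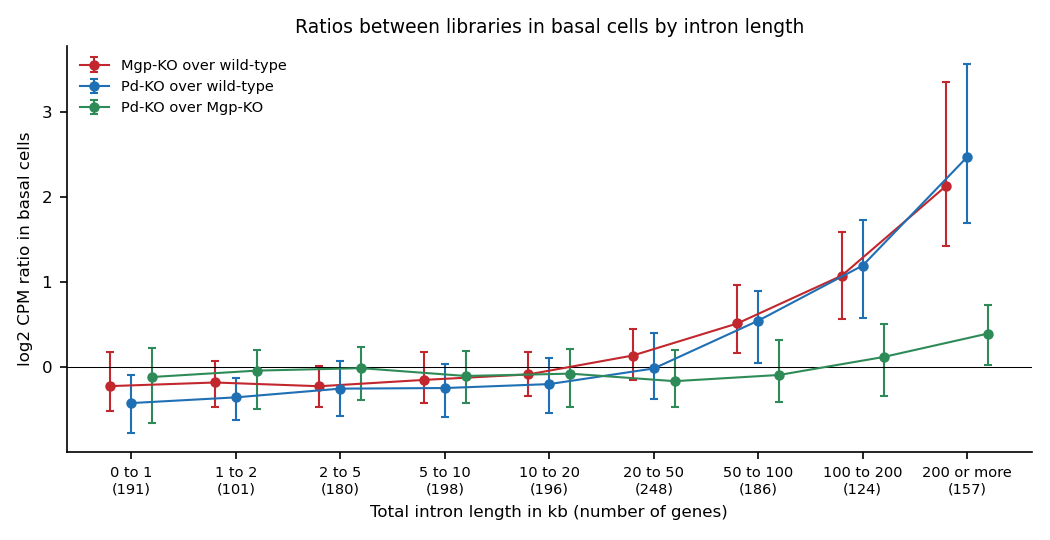
Median log2 CPM ratio between libraries in basal cells (points, with bars from the lower to the upper quartile of genes) by total intron length in kb, for *Mgp*-KO over wild-type (red), *Pd*-KO over wild-type (blue) and *Pd*-KO over *Mgp*-KO (green); numbers of genes are in parentheses. Both comparisons with wild-type climb to 2.14 and 2.47 in the longest genes, while the comparison between the knockouts reaches 0.40.

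Within this limit, none of the 17 contractile genes tested of 20 was past 2-fold in either knockout, with medians of -0.07 in *Mgp*-KO and -0.24 in *Pd*-KO. Without the highest cell of each library, *Actg2* (log2 ratio -1.14), *Pdlim3* (-1.05) and, just so, *Mylk* were past 2-fold lower in *Pd*-KO and *Pdlim7* was past 2-fold higher in *Mgp*-KO. *Synpo2*, an actin-binding protein, had too few UMIs to be tested and was at 20.6, 126 and 78.4 CPM, from 6, 80 and 8 UMIs. *Acta2* had log2 ratios over wild-type of -0.07 (-0.12 to -0.01) in *Mgp*-KO and -0.71 (-0.82 to -0.61) in *Pd*-KO cells. Of the 5 hemidesmosome and integrin genes tested of 12, none was past 2-fold, and so few genes show little beside the 17.6% and 17.5% of all genes that were higher. *Itga9*, an integrin chain with too few UMIs to be tested, was at 17.2, 58.1 and 49.0 CPM, from 5, 37 and 5 UMIs. Of 12 basement membrane genes, *Lama1*, *Col4a5* and *Col4a6* were past 2-fold higher in both knockouts and *Lamc1* and *Col4a2* were among 3 further genes that were so in *Pd*-KO, and the 5 named here have 106 to 301 kb of introns. The medians of the list were 0.51 and 1.03. Of 5 keratins tested, none was past 2-fold in *Mgp*-KO and *Krt17* and *Krt23* were lower in *Pd*-KO, where 7.4% of all genes were. The log2 ratio of *Krt17* was -1.01 (-1.40 to -0.66), and without the highest cell of each library -0.25. That of *Krt23*, from 27, 71 and 3 UMIs, was -1.46 (-4.02 to 0.04), and without the highest cells -1.56. The ratio of *Trp63*, which has 200 kb of introns, went from 1.92 to 0.59 in *Pd*-KO without them.

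Of 16 genes tested from a list of immediate early and heat shock genes, which are known to respond to tissue dissociation, 7 were past 2-fold higher and none lower in *Mgp*-KO, with a median of 0.93, and none was higher and 13 were lower in *Pd*-KO (12 with the floor), with a median of -1.87. Of all genes tested, 17.6% were higher and 1.71% lower in *Mgp*-KO, and 17.5% higher and 7.4% lower in *Pd*-KO. Of the 16 genes, 14 have less than 5 kb of introns, and among all such genes 2.54% were higher and 2.97% lower in *Mgp*-KO, and 0.424% higher and 13.1% lower in *Pd*-KO. *Fos*, an immediate early factor with 1.03 kb of introns, was at 810, 2242 and 304 CPM. *Hspa1a*, an inducible heat shock chaperone without introns, was at 258, 543 and 9.8 CPM. The sum over the list was 7465, 13735 and 2813 CPM in basal, 12958, 19650 and 10948 CPM in luminal and 12994, 27273 and 6392 CPM in vascular smooth muscle cells, so the order of the libraries was the same in all 3 types. The part of dissociation in the other differences between libraries was not tested.

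The BMP and TGFβ genes were tested for the same contrasts because MGP binds BMP ligands. Of 7 genes, *Bmpr1a*, *Id3* and *Tgfbr3* were past 2-fold higher in *Mgp*-KO and *Mgp* was lower, and in *Pd*-KO *Bmpr1a* and *Tgfbr3* were higher and *Mgp*, *Id3*, *Fst* and *Ccn2* were lower, *Id3* not with the floor. Over all genes, 17.6% were higher and 1.71% lower in *Mgp*-KO, and 17.5% higher and 7.4% lower in *Pd*-KO, and 7 genes are too few to set against these shares. *Bmpr1a* and *Tgfbr3*, both receptors, have 86.3 and 177 kb of introns. *Id3* had 14, 91 and 1 UMIs, with log2 ratios of 1.53 (0.75 to 2.50) and -1.76 (-7.70 to 0.42), so the *Pd*-KO value was not distinguishable from wild-type at this depth. *Fst* had log2 ratios of 0.37 (0.00 to 0.76) and -1.19 (-2.25 to -0.36), from 81, 230 and 12 UMIs. *Ccn2*, a matricellular target of TGFβ and of cell tension, had log2 ratios of -0.10 (-0.45 to 0.28) and -1.98 (-3.31 to -1.02), from 95, 195 and 8 UMIs.

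Fibroblast genes showed how single cells could carry a ratio. *Col3a1* was at 1284, 624 and 3087 CPM in basal cells and *Col1a1* at 546, 325 and 1862 CPM, and both were past 2-fold higher in *Pd*-KO. In *Pd*-KO, 286 of 315 *Col3a1* UMIs and 172 of 190 *Col1a1* UMIs lay in the highest cell, and in *Mgp*-KO 286 of 398 and 143 of 207. Without the highest cell of each library, the log2 ratio of *Col3a1* over wild-type was -1.97 in *Pd*-KO and -2.78 in *Mgp*-KO. The summed fibroblast list in free RNA was 22938, 43749 and 89085 CPM, and its part in the basal values was not tested.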

How the data were processed

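The authors deposited raw UMI counts of all barcodes over 32285 genes (184102026, 93212243 and 83942865 UMIs; *Mgp*-KO second, *Pd*-KO last), without normalization, from 10x Genomics 3′ v3 libraries. The paper's methods give Cell Ranger v6.1.1 with mm10, the submitters' processing notes give GRCm39, and the file headers name Cell Ranger 4 (wild-type) and 7.1.0 (both knockouts). Barcodes with at least 2000 UMIs and at most 10% mitochondrial UMIs were kept, and cell types were gated on UMIs. Counts were summed per library and type, with 0.5 counts added for log2 ratios. A gene was past the fold at 2-fold, between types in every library; the 7 gate genes were left out. Intervals were exact binomial (Clopper-Pearson), Poisson or conditional binomial, at 95%. Genes of the written lists were named, and beyond them the 12 highest and lowest (genotypes 10) with at least 100 CPM. Introns and gene positions were taken from GENCODE M21, which held 99.8% of the genes. Doublets were kept; they were scored with scanpy 1.11.5 (Scrublet), whose automatic threshold called 0.0159% of *Mgp*-KO barcodes and was replaced by a score of 0.3 for an alternative. Calculations used Python 3.11.15, numpy 2.4.6 and scipy 1.17.1 and were tested on simulated data. Members and lists were chosen with earlier results of these data known. Some genes that count in these lists are not reported here by name.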

Additional observations from a re-analysis of the deposited data

How the results depend on the processing

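Of 142 alternative values, 123 stayed within the counting interval or within 1.5 times the count. Only the log2 ratios of *Mgp* could reverse, and none did, since shares and gene counts have no direction. Thinning every cell to 2000 UMIs before gating lowered the basal share to 0.105% in wild-type, 0.485% in *Mgp*-KO and 0.0454% in *Pd*-KO, and basal cells per luminal cell to 0.0391 in wild-type, 0.123 in *Mgp*-KO and 0.04 in *Pd*-KO, the last still within its wide interval. With genes of at least 20 UMIs, 1106 genes were higher than in luminal and 945 higher than in vascular smooth muscle cells, 1488 were higher and 199 lower in *Mgp*-KO, and 1753 were higher and 612 lower in *Pd*-KO. With median-ratio scaling, 41 genes were lower in *Mgp*-KO, in place of 27. Alternatives chosen after seeing the data were genes with introns under 5 kb (12 higher and 14 lower in *Mgp*-KO, 2 and 62 in *Pd*-KO) and leaving out the highest member for each gene, which gave 189 lower genes in *Pd*-KO in place of 117; this removes 1 of 10 cells there. With at least 3 UMIs assumed on the lower side of each ratio, also chosen after seeing the data, 247 genes were lower than in luminal cells in place of 715 and 515 lower than in vascular smooth muscle cells in place of 824. Leaving out members with at least 3 *Krt18* UMIs, doublet scores of at least 0.3 or any 1 library changed no count by more than 1.5 times. All members had at least 3 *Acta2* UMIs, so the alternative on *Acta2* was the same set. No paired analysis was possible because each genotype was 1 library. With 10 *Pd*-KO cells, genes under about 29.4 CPM (3 UMIs) could not be told from absent.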

Other observations

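Some genes were carried by few members. *Wfdc18*, a gene of the whey acidic protein family at 696, 713 and 664 CPM in luminal cells, had 110 UMIs in 7 of 107 *Mgp*-KO basal cells, 55 of them in 1 cell, and 2 and 1 UMIs in the wild-type and *Pd*-KO basal cells. *Csrp2*, a LIM domain protein of smooth muscle, had 74 UMIs in wild-type basal cells, 56 of them in 1 cell, and 42 and 3 UMIs in *Mgp*-KO and *Pd*-KO basal cells.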
